A study of Mus musculus with 19 samples.

Results

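The genes that make prostaglandins and leukotrienes were examined in Kupffer cells (KCs), the resident mφs of the liver, of embryonic origin (em-KCs) and of monocyte origin (mo-KCs). The list held 8 genes: Ptgs1, Ptgs2, Ptges, Hpgds, Alox5, Alox5ap, Lta4h and Ltc4s. They were chosen by name from the pathway with earlier results of these arrays known, and a gene with several probesets would have been represented by the probeset selected on its mean level over all arrays. Each measured member had exactly 1 probeset assigned to it alone, so that mean level decided nothing. In all, 7 of the 8 listed genes were measured, of 19938 genes in the series, and Ptgs1 was not analysed here.

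Gene expression was measured on 19 Affymetrix Mouse Gene 1.0 ST arrays, 1 per sorted KC sample. Arrays within a group are biological replicates by their labels. All mice were C57Bl/6 and between 6 and 12 weeks of age, and both sexes were used. In KC-DTR mice the human diphtheria toxin receptor, with YFP, is expressed from the Clec4f locus, so that diphtheria toxin (DT) depletes KCs and circulating monocytes refill the niche. Em-KCs were on 11 arrays: 3 from WT mice, 3 from KC-DTR mice without DT, 1 from a WT littermate without DT, 2 from WT littermates 15 days after 50 ng DT and 2 from WT littermates 30 days after 50 ng DT. The last 8 of these belong to the KC-DTR colony and are called colony em-KCs below. Mo-KCs came from KC-DTR mice given 50 ng DT, with 3 arrays at day 15 and 5 arrays at day 30. All cells were sorted as Clec4F+ mφs with intermediate CD11b, so mo-KCs are defined by this gate and by the time after depletion.

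Prostanoids and leukotrienes are lipid mediators made from arachidonic acid that phospholipases release from membranes. Cyclooxygenases (Ptgs1, the constitutive form, and Ptgs2, the inducible form) make prostaglandin H2, which Ptges turns into prostaglandin E2 and Hpgds into prostaglandin D2. In the other branch 5-lipoxygenase (Alox5), with its activating protein FLAP (Alox5ap), makes leukotriene A4, which Lta4h turns into the neutrophil attractant leukotriene B4 and Ltc4s into the cysteinyl leukotriene C4. KCs are known as a main source of prostaglandins E2 and D2 in the liver.

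The promoters of Ptgs2 and Hpgds are shown because these were the members that differed most between mo-KCs and em-KCs. The sequences are from RefSeq (GRCm38.p6), run 5′ to 3′ on the strand of the gene from 250 bases before to 50 bases after its start, and 7 of the 8 listed genes matched an entry. Capitals mark every match, on either strand, to 1 of 5 motifs: ACGTCA (core of the cAMP response element), CACGTG (E-box), TTGCGCAA (C/EBP), GAGGAA (core bound by PU.1) and, for the box that places the start of many genes, TATAAA.
Ptgs2, chr1:150099781-150100080, plus strand: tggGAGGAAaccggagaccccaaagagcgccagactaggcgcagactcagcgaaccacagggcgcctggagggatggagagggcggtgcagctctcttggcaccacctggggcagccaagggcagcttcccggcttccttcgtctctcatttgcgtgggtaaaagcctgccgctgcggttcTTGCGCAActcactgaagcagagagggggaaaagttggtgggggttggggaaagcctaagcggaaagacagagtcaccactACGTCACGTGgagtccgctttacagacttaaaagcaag
Hpgds, chr6:65144681-65144980, minus strand: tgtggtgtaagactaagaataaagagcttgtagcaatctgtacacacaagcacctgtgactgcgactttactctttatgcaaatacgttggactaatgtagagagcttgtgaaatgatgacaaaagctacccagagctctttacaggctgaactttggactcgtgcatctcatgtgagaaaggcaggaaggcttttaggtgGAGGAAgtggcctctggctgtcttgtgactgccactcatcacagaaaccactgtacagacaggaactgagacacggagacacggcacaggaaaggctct
Within this window the Ptgs2 promoter held 4 of the 5 motifs, and the ACGTCA and CACGTG matches overlap just after the RefSeq start used here. Other starts were not examined, so a motif missing from the window may lie outside it. The Hpgds promoter held GAGGAA alone. Of all 32851 promoters of this length in the table, 7.51% held ACGTCA, 7.15% CACGTG, 0.183% TTGCGCAA, 28.3% GAGGAA and 13.6% TATAAA, and GAGGAA was in each of the 7 member promoters. The motifs were picked with the sequences at hand, so a match is a description of the letters and not of binding.

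Expression is given as deposited log2 values, so that 1 unit is a doubling, and levels of different probesets are not compared with each other. Over all probesets the median of an array was 5.72 to 5.81. Precision is limited by the number of arrays, and no background level was known for any probeset. Arrays were compared with limma in 1 fit of the 3 groups, two-sided, p-values being adjusted by Benjamini-Hochberg across the 19938 genes. A gene was called at an adjusted p under 0.05. Since the arrays were already known when the list was drawn up, these p-values describe how a difference compares with the spread between arrays and are not independent support. Fewer cells of a type and less RNA per cell cannot be told apart in sorted bulk samples.

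A set of 6 arrays stood apart from the other 13. Xist, on the 3 WT em-KC arrays and on replicates 3 to 5 of the day 30 mo-KCs, was 8.72 to 9.51 against 4.07 to 4.53 elsewhere. Eif2s3y, which is Y-linked, was 3.30 to 4.28 against 7.53 to 8.06. The same 6 arrays had lower Fos and Egr1, immediate-early genes, with Fos at 6.92 to 8.14 against 9.59 to 10.86. High Xist with low Y-linked genes is the pattern of female cells, and the 13 arrays had the male pattern. The labels name neither sex nor batch for single arrays, so values within the 13 arrays are given where they bear on a member. Clec4f, the gene of the sorted lectin, was 12.17 to 12.67 in em-KCs, 12.16 to 12.21 in day 15 mo-KCs and 10.66 to 12.29 in day 30 mo-KCs. Em-KCs had an average of 15 KC markers of 11.72 ± 0.04 (SD, n = 11), and mo-KCs had 11.06 ± 0.07 (SD, n = 3) when taken at day 15 and 11.13 ± 0.15 (SD, n = 5) when taken at day 30.

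**Figure D1:**
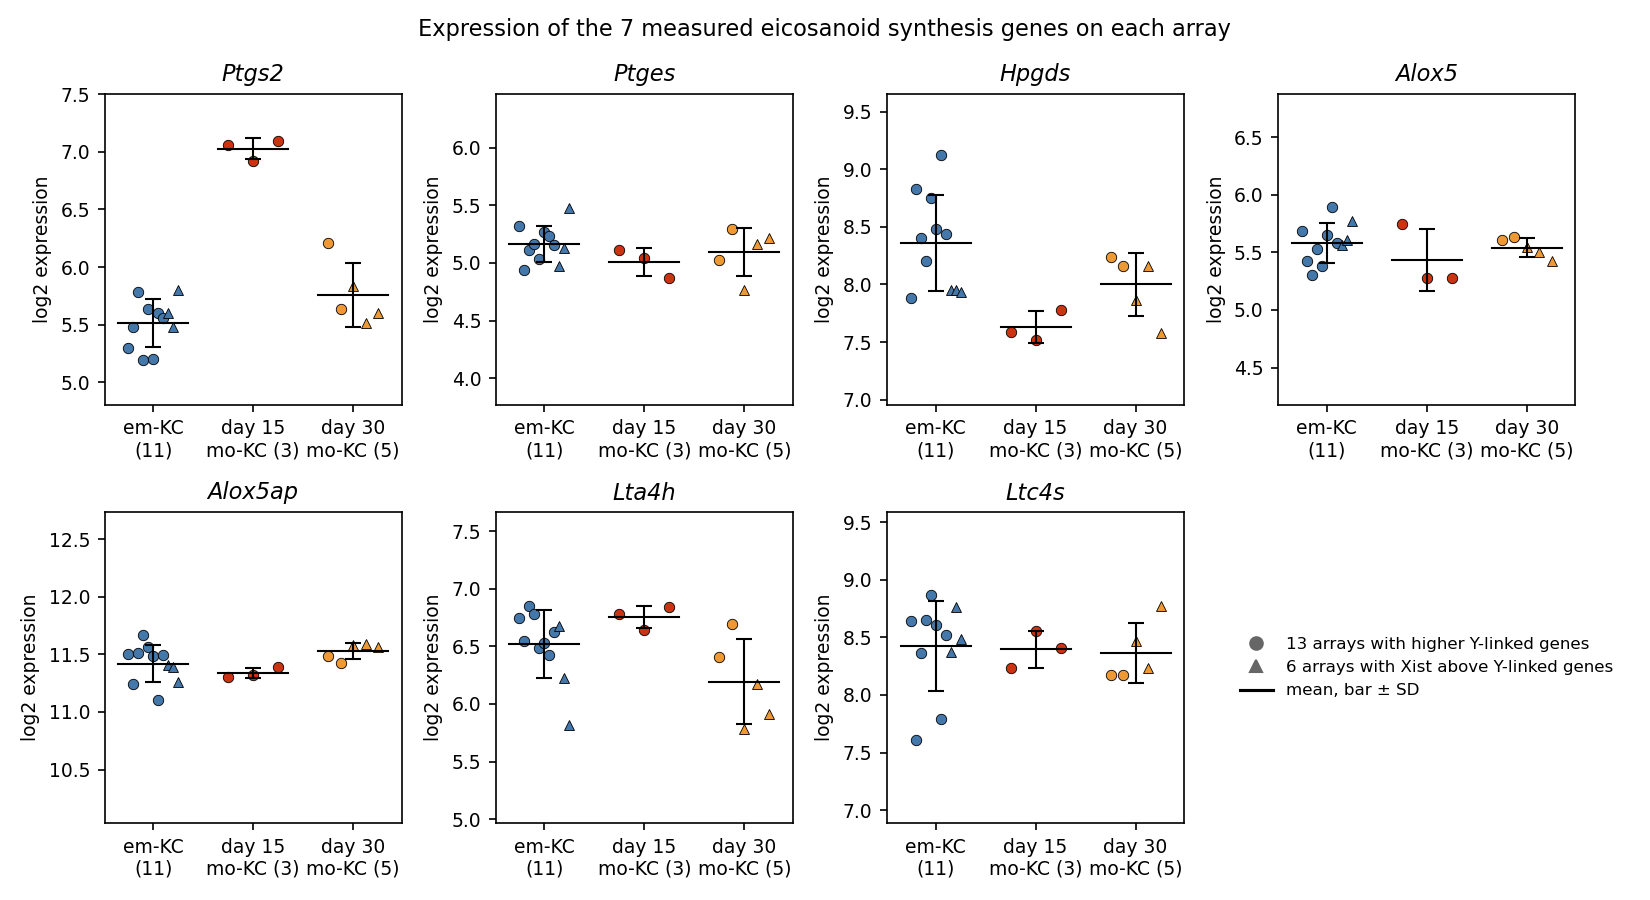
Log2 expression (vertical axis) of each measured member in em-KCs (11 arrays), day 15 mo-KCs (3) and day 30 mo-KCs (5), 1 point per array (triangles for the set of 6), with lines at the mean and bars of 1 SD; every panel spans the same number of log2 units. Ptgs2 at day 15 lies between 6.92 and 7.10, above every other array, and the Hpgds values at day 15 lie below every em-KC array.

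Ptgs2, the inducible cyclooxygenase, was the member that rose in mo-KCs. Its level was 7.06, 6.92 and 7.10 in the 3 day 15 mo-KC arrays. In day 30 mo-KCs it was 6.21, 5.64, 5.83, 5.51 and 5.60. Em-KCs ran from 5.20 to 5.80 with a median of 5.56. All day 15 arrays lay above all em-KC and all day 30 arrays, while at day 30 replicate 1 and replicate 3 lay above every em-KC array and the other 3 lay within the em-KC range.

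Between em-KCs and day 15 mo-KCs Ptgs2 rose by 1.51 (standard error 0.14, 95% interval 1.23 to 1.80), a 2.86-fold difference, from 5.51 ± 0.21 (SD, n = 11) to 7.03 ± 0.09 (SD, n = 3), with adjusted p = 6.54e-07 from limma. The em-KC mean lay below the lowest array median, 5.72, and whether it was above background is not known. The fold difference is therefore one of measured values, and an equal transcript level does not follow where day 30 arrays overlap em-KCs. By p-value Ptgs2 ranked 10 of the 19938 genes. It was the only 1 of the 7 measured members called at day 15, against 0.502% of all genes. Of all genes, 0.752% had every day 15 array above every em-KC array. Under all 27 alternative settings, 14 of which left out 1 em-KC or day 15 array, Ptgs2 kept a day 15 difference of 1.48 to 1.61 and its call.

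At day 30 the Ptgs2 difference from em-KCs was 0.25 (95% interval 0.01 to 0.48, adjusted p = 0.360 from limma), which did not pass the test. Within the 13 arrays the mean was 5.92 in day 30 mo-KCs (n = 2) and 5.47 in em-KCs (n = 8). Within the 6 it was 5.65 and 5.63 (n = 3 each). Between the days Ptgs2 fell by 1.27 (standard error 0.15, adjusted p = 2.45e-04 from limma), or 2.41-fold. Only 4 genes of all, 0.0201%, were called between the days, and Ptgs2, ranked 4, was 1 of them and the only 1 of the 7 measured members. Of all genes, 1.55% had every day 30 array below every day 15 array, as Ptgs2 had. The fall passed without each mo-KC array in turn, while within the 13 arrays, which hold 2 day 30 arrays, it was -1.11 with adjusted p = 0.0533 from limma. By the methods' t-test, run gene by gene, the same values gave an adjusted p of 0.886 between the days.

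Averaged over both mo-KC groups, Ptgs2 was higher by 0.88 than in em-KCs (adjusted p = 1.23e-05 from limma), and it was the only 1 of the 7 measured members called, against 1.19% of all genes. The separate days above show that this average owes most to the day 15 arrays.

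**Figure D2:**
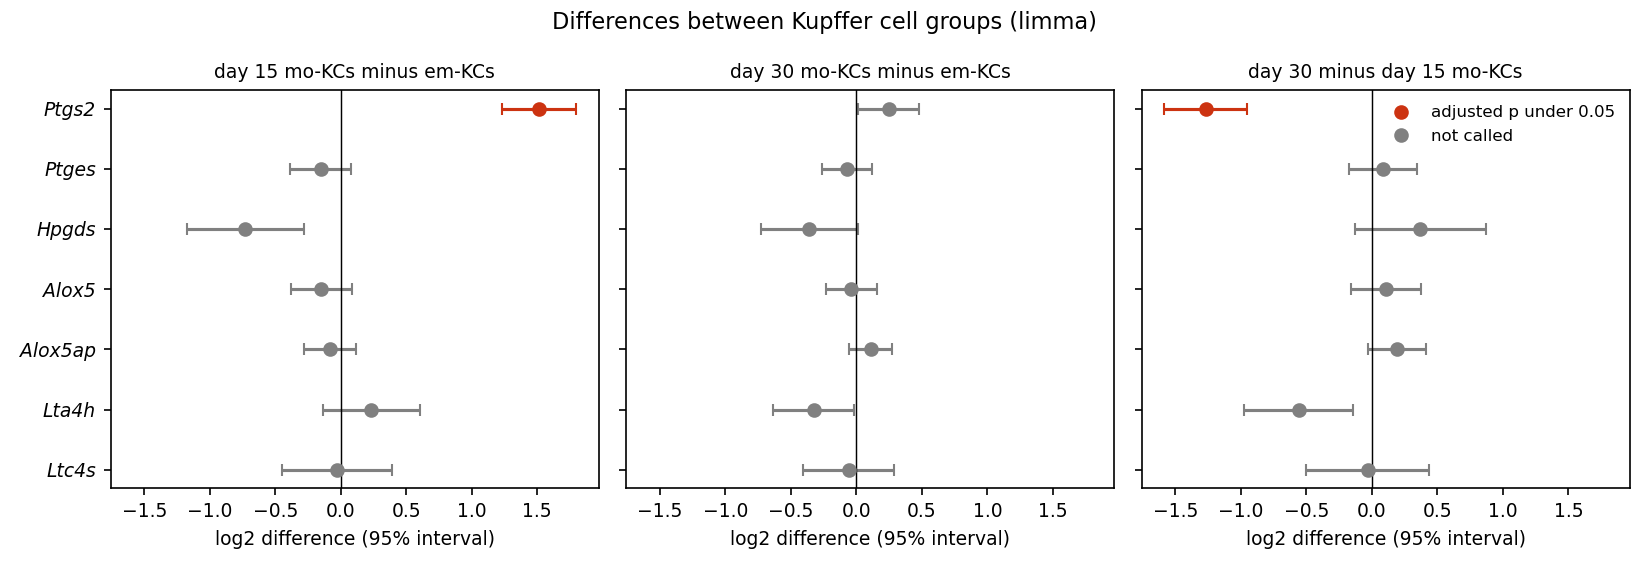
Log2 differences (horizontal axis) of the 7 measured members between day 15 mo-KCs and em-KCs, day 30 mo-KCs and em-KCs, and the 2 mo-KC groups, with 95% confidence intervals from limma; red points passed an adjusted p of 0.05. The called differences are those of Ptgs2 at day 15 (1.51) and between the days (-1.27).

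The genes whose pattern was most like that of Ptgs2 over the 19 arrays were Ccr2, the receptor that brings monocytes out of bone marrow (Pearson r = 0.92), Sulf2, a heparan sulfate sulfatase (r = 0.88), and Cx3cr1, the fractalkine receptor of monocytes and many mφs (r = 0.82). Within the 13 arrays r was 0.94, 0.91 and 0.87. These are descriptions over arrays that share their groups, and the 3 day 15 arrays carry much of each relation. Ccr2 was 8.17, 8.77 and 8.50 at day 15, between 5.57 and 6.67 at day 30 and between 5.03 and 6.27 in em-KCs. Like Ptgs2, it stood apart at day 15 and overlapped em-KCs at day 30. Cx3cr1 was 9.24 to 9.97 at day 15, 8.02 to 8.67 at day 30 and 6.61 to 7.85 in em-KCs, so it lay above em-KCs on both days, without the overlap that Ptgs2 showed at day 30.

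**Figure D3:**
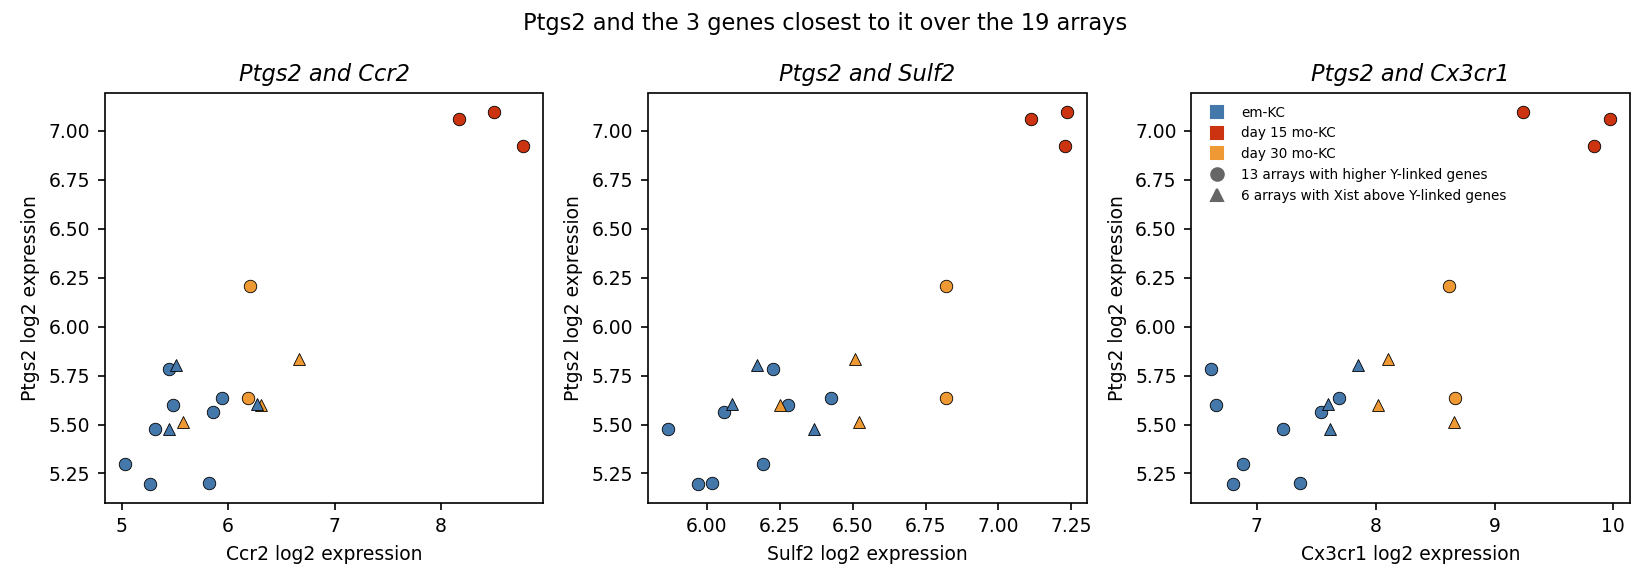
Log2 expression of Ptgs2 (vertical axis) against Ccr2, Sulf2 and Cx3cr1 (horizontal axes), each point being an array (colour for group, shape for array set). The 3 day 15 mo-KC arrays form the upper right corner of each panel, and the other 16 arrays have Ptgs2 at or below 6.21.

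Markers of other cells were set beside Ptgs2. Of the 10 listed monocyte markers 7 were measured, and they averaged 6.55 at day 15 (6.47 to 6.73), 6.32 at day 30 (6.14 to 6.54) and 6.26 in em-KCs (6.00 to 6.78). Only Ccr2 among them was called at day 15, with a mean of 8.48 against 5.58 in em-KCs. The median day 15 difference of the 7 was -0.16, so the higher average does not stand for the whole list. The 12 neutrophil markers averaged 5.23, 5.29 and 5.22 in the same order and the 11 mast cell and basophil markers 4.74, 4.81 and 4.77, with none called. The 6 eosinophil markers averaged 5.77, 5.63 and 5.36, and the called gene was Ccr3 alone, with mean levels of 10.22, 9.39 and 7.52. Their median day 15 difference was -0.05. The KC marker average went the opposite way to Ptgs2, with r = -0.63 over the 19 arrays and -0.90 within the 13. It was not a fall of all 15 markers: at day 15, 4 were called lower and 0 higher, with a median difference of -0.18. Timd4 fell most, with a mean of 8.16 at day 15 and 11.90 in em-KCs, while Id3 had 11.27 and 11.06. The average was 11.06 at day 15, where all arrays are of the set of 13, and 11.13 at day 30. The day 30 value joins 11.29 on the 2 arrays of the set of 13 and 11.03 on the 3 of the set of 6. How the KC markers relate to the fall of Ptgs2 between the days was not tested. The sort gate left out cells with Ly6C, Ly6G or SiglecF, markers of classical monocytes, neutrophils and eosinophils. The part of other cells in the Ptgs2 result was not tested.

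Ptgs2 is itself known as a gene of the immediate-early response, so the 22 measured genes of that response were compared. They averaged 9.60 at day 15 (9.38 to 9.74) against 8.95 in the 11 em-KC arrays, with a median difference of 0.69, so they were higher along with Ptgs2 in that comparison. Within em-KCs the average was 7.88 on the WT and 9.35 on the colony arrays (8.90 to 9.67), and among day 30 mo-KCs it was 9.54 on the 2 day 30 arrays of the set of 13 and 7.95 on the 3 day 30 arrays of the set of 6. None of these genes was called at day 15, in a fit without a term for array set. Fos had an SD of 1.25 over the 11 em-KC arrays and 0.35 over the 8 colony arrays, so the lack of a call says little. The part of the immediate-early genes in the Ptgs2 difference was not tested. Ptgs2 was 6.21 and 5.64 on the 2 day 30 arrays of the set of 13 and 5.83, 5.51 and 5.60 on the 3 of the set of 6. Pearson r between Ptgs2 and the average of the immediate-early genes was 0.30 over the 19 arrays and 0.37 within the 13.

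Ptges, the terminal synthase of prostaglandin E2, did not pass the test in any comparison. Its level was 5.11, 5.04 and 4.87 in day 15 mo-KCs, ran from 4.76 to 5.30 at day 30 (median 5.17) and from 4.94 to 5.48 in em-KCs (median 5.16). The groups overlapped throughout. The difference was -0.15 at day 15 (95% interval -0.39 to 0.08) and -0.07 at day 30 (-0.26 to 0.12). The day 15 interval leaves out a change of the measured value as large as that of Ptgs2 on that day. Every Ptges value lay below the lowest array median, 5.72. Whether this probeset was above background is not known, so an unchanged transcript does not follow.

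Hpgds, the hematopoietic prostaglandin D2 synthase, had its lowest levels in day 15 mo-KCs. They were 7.59, 7.52 and 7.78 there and 8.24, 8.16, 7.86, 8.16 and 7.58 at day 30. Em-KCs ran from 7.88 to 9.12 with a median of 8.41. Every day 15 array lay below every em-KC array, as 1.05% of all genes did, whereas day 30 overlapped em-KCs.

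The Hpgds difference from em-KCs was -0.73 at day 15 (standard error 0.21, 95% interval -1.17 to -0.28, adjusted p = 0.228 from limma), -0.36 at day 30 (adjusted p = 0.400) and -0.54 for both days together (adjusted p = 0.117), and none was called. The call depended on the em-KC arrays compared. Against the 8 colony em-KCs alone the difference was -0.88 at day 15 (adjusted p = 0.0355 from limma) and -0.70 for both days (adjusted p = 0.0154). A block for array set gave -0.86 at day 15 (adjusted p = 0.0150 from limma). With all em-KC conditions kept, none of 14 runs that left out 1 array called it at day 15 (adjusted p = 0.150 to 0.786 from limma). Same-day littermates as controls gave no call at day 15 and a call for both days (-0.88, adjusted p = 0.0116 from limma).

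Among em-KCs themselves Hpgds varied more than among mo-KCs of a day. It was 7.95, 7.95 and 7.93 in WT em-KCs, 7.88, 8.83 and 8.41 in untreated KC-DTR em-KCs and 8.20 in the untreated littermate. Littermates had 8.75 and 8.48 at day 15 and 9.12 and 8.44 at day 30 after DT. The WT arrays were low and close to each other, and 7 of the 8 colony arrays lay above them, untreated KC-DTR replicate 1 being the exception.

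Hpgds was lower in WT em-KCs than in colony em-KCs by -0.57 (standard error 0.18, adjusted p = 0.0359 from limma), from 8.51 ± 0.39 (SD, n = 8) to 7.94 ± 0.01 (SD, n = 3). It was the only 1 of the 7 measured members called there, in a comparison that called 17.9% of all genes, so 1 in 7 is near the background. The call was lost without any 1 of 5 arrays (adjusted p = 0.0600 to 0.0945), namely each WT array and replicate 1 of the littermates at day 15 and at day 30. All WT em-KC arrays belong to the set of 6 and all colony em-KC arrays to the set of 13. Array set, its sex pattern and origin of the mice therefore cannot be told apart. On these WT and colony arrays the immediate-early genes averaged 7.88 and 9.35, the hepatocyte markers 10.03 and 8.40 and the monocyte markers 6.60 and 6.13, and their part in the Hpgds difference was not tested.

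Cep112, a centrosomal protein gene, and Pfn2, a profilin, had the pattern most like that of Hpgds (r = 0.84 for both over 19 arrays, 0.85 and 0.88 within the 13), followed by Gpr137b-ps (r = 0.80 and 0.87). Hpgds went with the average of the KC markers (r = 0.62 over the 19 arrays and 0.73 within the 13) and against that of the monocyte markers (r = -0.69 in both).

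**Figure D4:**
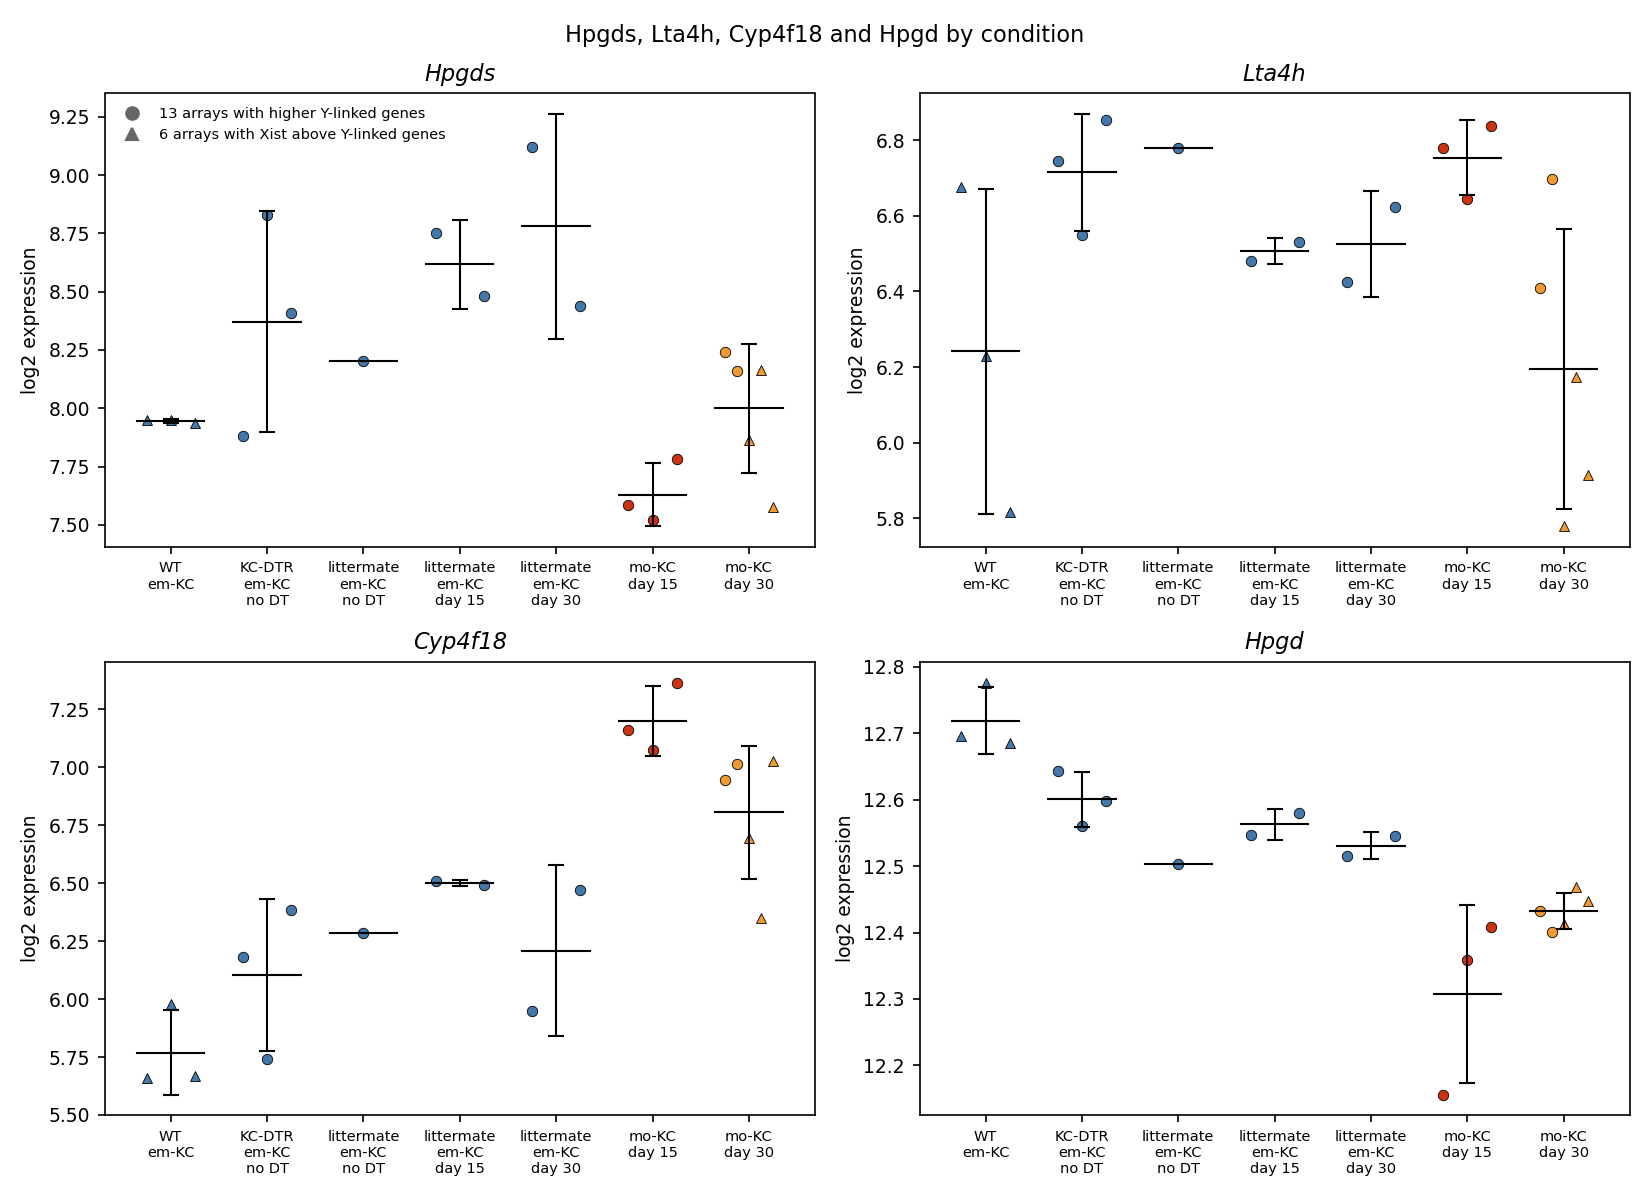
Log2 expression (vertical axis) of Hpgds, Lta4h, Cyp4f18 and Hpgd in each of the 7 conditions, 1 point per array, shaped by array set, with lines at the mean and bars of 1 SD where there is more than 1 array. WT em-KCs and day 15 mo-KCs are low for Hpgds, the 5 lowest Lta4h values are on arrays of the set of 6, and Cyp4f18 and Hpgd differ in opposite directions in mo-KCs.

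In the leukotriene branch no member was called in a comparison of mo-KCs with em-KCs. Alox5, the 5-lipoxygenase, was 5.75, 5.27 and 5.28 at day 15, ran from 5.42 to 5.63 at day 30 (median 5.54) and from 5.30 to 5.89 in em-KCs (median 5.58). All 3 groups overlapped, with 1 day 15 array high and 2 low. Its difference was -0.15 at day 15 (95% interval -0.38 to 0.09) and -0.04 at day 30 (-0.23 to 0.16). The Alox5 group means (5.43, 5.54 and 5.58) also lay below the lowest array median, 5.72, so the limit given for Ptges holds here too.

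Alox5ap, which encodes FLAP, was the most even member, with an SD of 0.14 over all 19 arrays. It was 11.30, 11.32 and 11.39 at day 15, ran from 11.43 to 11.59 at day 30 (median 11.56) and from 11.10 to 11.67 in em-KCs (median 11.48). Both mo-KC groups lay inside the em-KC range, and every day 30 array lay above every day 15 array, as in 1.65% of all genes. The difference between the days was 0.19 (95% interval -0.03 to 0.42, adjusted p = 0.920 from limma), which did not pass the test.

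Lta4h, the leukotriene A4 hydrolase, was 6.78, 6.65 and 6.84 at day 15 and 6.41, 6.70, 5.78, 6.17 and 5.92 at day 30. Em-KCs ran from 5.82 to 6.85 with a median of 6.55. The 5 lowest values were all on arrays of the set of 6, whose remaining array, WT em-KC replicate 1, had 6.68. Its 3 day 30 arrays averaged 5.96 and its 3 WT em-KC arrays 6.24, while em-KCs, day 15 and day 30 mo-KCs of the set of 13 averaged 6.62, 6.75 and 6.55. The difference from em-KCs was 0.23 at day 15 (adjusted p = 0.936 from limma) and -0.32 at day 30 (adjusted p = 0.357), and -0.56 between the days (adjusted p = 0.920).

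The 3 genes most like Lta4h had lower r within the 13 arrays. Caprin1, which encodes an RNA-binding protein, had r = 0.90 over 19 arrays and 0.52 within the 13, Nckap1l, a hematopoietic subunit of the actin-regulating WAVE complex, had 0.87 and -0.05, and Atxn2l had 0.86 and 0.31. The average of the immediate-early genes gave 0.69 and -0.11. These genes were picked for their r over all 19 arrays. WT em-KCs, all of the set of 6, differed from colony em-KCs in Lta4h by -0.38 (limma adjusted p = 0.138), which did not pass, and the part of the array set was not tested further.

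Ltc4s, the leukotriene C4 synthase, was 8.23, 8.55 and 8.41 at day 15, ran from 8.17 to 8.78 at day 30 (median 8.24) and from 7.61 to 8.87 in em-KCs (median 8.52). Both mo-KC groups lay within the em-KC range, whose lowest values were 7.61 in untreated KC-DTR replicate 2 and 7.79 in day 30 littermate replicate 1. The difference was -0.03 at day 15 (95% interval -0.45 to 0.39) and -0.06 at day 30 (-0.41 to 0.29).

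The gene most like Ltc4s was Ptgis, the prostacyclin synthase (r = 0.83 over 19 arrays, 0.85 within the 13). Ddo, D-aspartate oxidase, and Wnt2, a ligand that liver endothelium makes, followed (r = 0.75 and 0.73 over 19 arrays, 0.69 and 0.69 within the 13). Ptgis ran from 6.10 to 8.54 in em-KCs and from 7.80 to 8.42 in mo-KCs of both days. The 12 markers of liver endothelium averaged 10.04, 10.08 and 9.87 in em-KCs, day 15 and day 30 mo-KCs, and their r with Ltc4s was -0.16 over 19 arrays and 0.09 within the 13. Among the members themselves Ltc4s went most with Alox5ap, a related membrane protein (r = 0.61 and 0.77), and Ptges with Alox5 (r = 0.54 and 0.68).

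For the other members, Ptges was closest to Ndst4, Ube2j2 and Efcab9 (r = 0.79, 0.76 and 0.76), Alox5 to Wsb2, Armcx5 and Endov (0.76, 0.75 and 0.75), and Alox5ap to Kcnip2, Hottip and Gstm5 (0.78, 0.73 and 0.73). Within the 13 arrays r was 0.62, 0.48 and 0.54 for Ptges, 0.89, 0.77 and 0.79 for Alox5, and 0.85, 0.68 and 0.73 for Alox5ap. Each gene was picked for its high r among all genes of the series, and how high r runs by chance was not tested. These 3 members had SDs of 0.14 to 0.17 over the arrays, so the relations are within a narrow range.

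At day 30 none of the 7 measured members was called by limma, against 0.787% of all genes, with 2 members at an unadjusted p under 0.05 and none by the methods' t-test. The members' median difference was -0.06 at day 30 and -0.08 at day 15, beside -0.02 and -0.01 over all genes. Whether the day 30 difference changed between the array sets was tested directly: none of the 7 members was called, against 4.72% of all genes, and none was at an unadjusted p under 0.05. For Ptgs2 that difference of differences was -0.43 (95% interval -0.90 to 0.04, adjusted p = 0.306 from limma).

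Genotype and DT were also compared among em-KCs of the colony. Between untreated KC-DTR em-KCs (3 arrays) and littermate em-KCs (5 arrays) limma called 0 of the 7 members and 0% of all genes, with 0 members at an unadjusted p under 0.05 and 0 by the methods' t-test. The member differences ran from -0.28 (Ltc4s) to 0.15 (Lta4h). Between littermates with DT (4 arrays) and without (1 array, assumed to vary like the other conditions) limma called 0 of the 7 members and 0% of all genes, with 0 members at an unadjusted p under 0.05, and differences ran from -0.26 (Lta4h) to 0.50 (Hpgds). For Hpgds the 95% interval was wide, from -0.13 to 1.12. Ptgs2 in littermates given DT was 5.63 and 5.20 at day 15 and 5.60 and 5.56 at day 30, all above the untreated littermate, and the difference was 0.30 (95% interval -0.18 to 0.79).

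The rest of the pathway was described with 62 further genes in 7 lists, of which 57 were measured. Limma called 1 of the 57 at day 30 (0.787% of all genes), 1 at day 15 (0.502%) and 2 over both days (1.19%). Median differences of the 57 were -0.05, 0.01 and -0.02 in that order.

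Cyp4f18, a cytochrome P450 that inactivates leukotriene B4, rose on both days against all em-KCs. It was 7.16, 7.07 and 7.37 at day 15 and 6.95, 7.01, 6.69, 6.35 and 7.03 at day 30, against 5.66 to 6.51 in em-KCs (median 6.18). All mo-KC arrays except day 30 replicate 4 lay above all em-KC arrays. The day 15 difference was 1.08 (standard error 0.18, limma adjusted p = 0.00293). The day 30 difference was 0.69 (standard error 0.15, limma adjusted p = 0.0305). Neither day's call held against same-day littermates (0.70 and 0.60, limma adjusted p = 0.528 and 0.502). The day 15 call was lost without day 15 replicate 3 (1.00, adjusted p = 0.0646 from limma), and that of day 30 without any 1 of 6 arrays, with adjusted p from 0.0510 to 0.133: day 30 mo-KC replicates 1, 2, 3 and 5, KC-DTR em-KC replicate 2 and day 30 littermate replicate 1. Taking both days, Cyp4f18 was higher by 0.88 and kept its call without each array in turn (adjusted p from 2.40e-04 to 0.00378 from limma). Cyp4f18 was also lower in WT em-KCs than in colony em-KCs (-0.48, adjusted p = 0.0426 from limma).

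Hpgd, the dehydrogenase that begins the breakdown of prostaglandins, was lower by a small margin in mo-KCs of both days. It was 12.16, 12.36 and 12.41 at day 15 and ran from 12.40 to 12.47 at day 30, against 12.50 to 12.78 in em-KCs. No mo-KC array reached the em-KC range, as in 0.256% of all genes. The difference for both days was -0.23 (standard error 0.05, adjusted p = 0.0309 from limma), while day 15 alone (-0.30, adjusted p = 0.0956) and day 30 alone (-0.17, adjusted p = 0.229) did not pass. The call for both days was lost with colony em-KCs only (-0.19, adjusted p = 0.0925 from limma), with same-day littermates (-0.18, adjusted p = 0.536), within the 13 arrays (-0.20, adjusted p = 0.165) and with the replicate block (-0.25, adjusted p = 0.0753). It was also lost without any 1 of 4 arrays, with adjusted p from 0.0507 to 0.171: day 15 replicates 1 and 2, day 30 mo-KC replicate 3 and KC-DTR em-KC replicate 1.

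**Figure D5:**
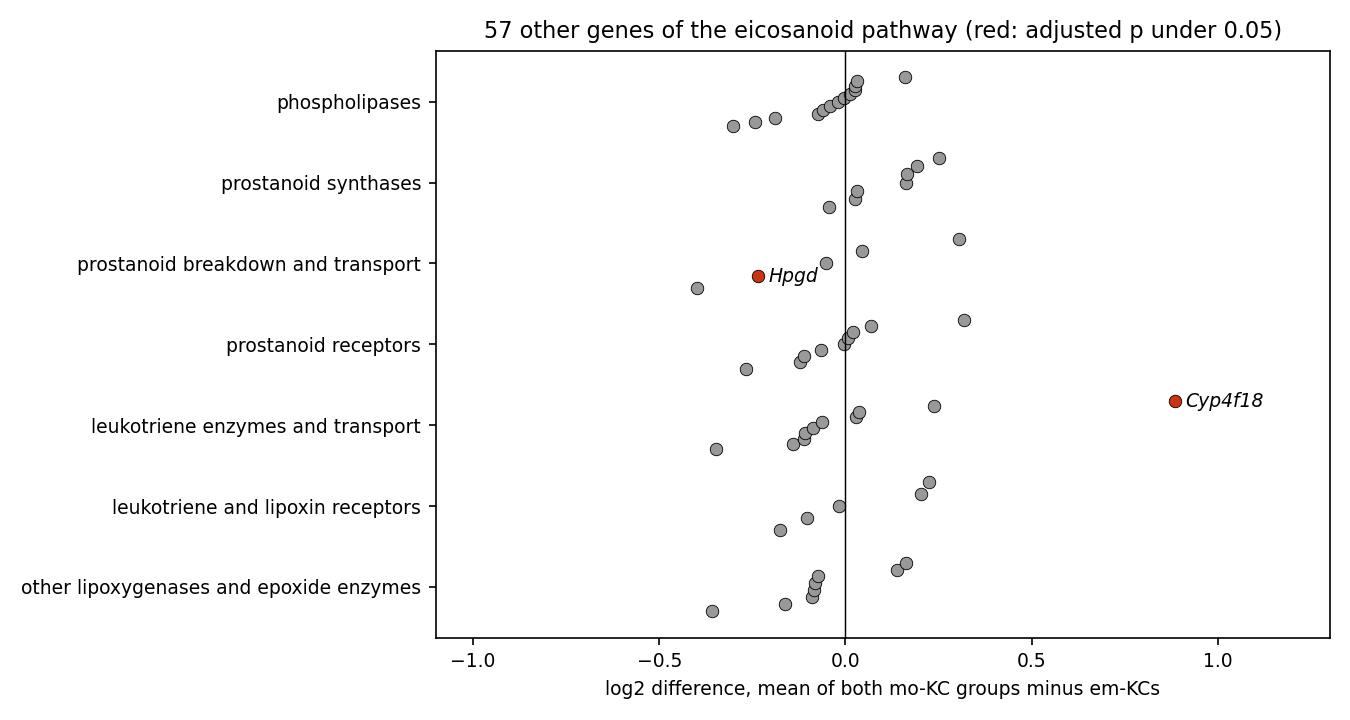
Log2 difference (horizontal axis) between the mean of both mo-KC groups and em-KCs for the 57 measured genes of the wider pathway, 1 point per gene, in 7 lists by role. The called genes are Cyp4f18 (0.88) and Hpgd (-0.23), and the other 55 lie between -0.40 and 0.32.

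No other gene of the wider pathway was called in these comparisons. Of the 13 phospholipase genes measured, Pla2g15 and Pla2g12a had the largest differences for both days, -0.30 and -0.24. Of 7 prostanoid synthases these were Ptges2 (0.25) and Ptgis (0.19). Of 5 breakdown and transport genes they were, beside Hpgd, the transporter Slco2a1 (-0.40) and the reductase Ptgr1 (0.30).

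Among 9 prostanoid receptors the largest differences for both days were those of Ptger2, a prostaglandin E2 receptor (0.32, adjusted p = 0.201 from limma), and Tbxa2r, the thromboxane receptor (-0.27). Among 10 leukotriene enzymes and transporters, beside Cyp4f18, they were those of Mgst2 (-0.35) and Mgst1 (0.24), microsomal glutathione transferases. Both cysteinyl leukotriene receptors, Cysltr2 (0.23) and Cysltr1 (0.20), led the 5 receptors of that branch. Of 8 other lipoxygenase and epoxide genes Ephx1, an epoxide hydrolase, came closest to the threshold (-0.36, adjusted p = 0.0513 from limma), followed by Aloxe3 (-0.16).

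Between WT and colony em-KCs 7 of the 57 wider genes were called by limma, beside 17.9% of all genes, and they are named here after their values were seen. Higher in WT em-KCs were Pla2g7 (0.54), Pla2g15 (0.45), Cotl1 (0.87) and Alox15 (0.49), and lower were Mgll (-1.38), Ptger1 (-0.86) and Cyp4f18. On the same arrays 16 of the 22 immediate-early genes were lower and 12 of the 13 measured hepatocyte markers were higher, and the part of either was not tested. Between day 30 and day 15 mo-KCs limma called 0 of the 57, with 0 at an unadjusted p under 0.05.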

How the data were processed

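The authors deposited log2 expression values per probeset of GeneChip Mouse Gene 1.0 ST arrays, made by Robust Multi-array Average (RMA), which corrects for background and quantile-normalizes the arrays. The platform annotation gave 1 gene symbol to 21789 of 35556 probesets. Probesets with several symbols (1621) or without any (12146) were not used. No filter on low values was applied. For each of 19938 genes the probeset of highest mean was kept. No pair of the 171 pairs of arrays was identical.

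Groups were fitted with limma 3.58.1 in R 4.3.3 (lmFit and eBayes, defaults, two-sided), all 3 groups in 1 fit and comparisons among em-KCs in a fit of 7 conditions, with Benjamini-Hochberg adjustment and a threshold of 0.05. The fit was also run on simulated data with independent noise per array. These held no difference between array sets, so they say nothing about its effect on the fit. Members and lists were chosen with earlier results of these data known. Genes named are the members, wider genes called in mo-KCs, up to 2 uncalled genes per wider list with the largest difference, the 3 genes most like each member, and series facts, while any other gene was picked with its values known. Alternatives covered the em-KC arrays, array set, controls of the same day, replicate number, single arrays, probeset, a filter under the 25th percentile, centring, variance model, t-test and threshold.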

Additional observations from a re-analysis of the deposited data

Results flagged for a closer look

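The Ptgs2 difference from em-KCs changed between the days: day 30 minus day 15 mo-KCs was -1.27 on the log2 scale (limma, adjusted p = 2.45e-04), with all 5 day 30 arrays below all 3 day 15 arrays.

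In a group of 5 arrays, 1 of 23 genes checked had an array far from the others, and chance gives about 1 in 20. It was Slco2a1, a prostaglandin transporter, at 7.94 in day 30 mo-KC replicate 4, where the other 4 arrays had 8.96 to 9.07.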

How the results depend on the processing

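At day 15, 2 members were called rather than 1 when array set was a block, when colony em-KCs alone were used, in the 13 arrays alone and by the methods' unadjusted t-test, Hpgds being the addition. For both days, 2 were called with colony em-KCs only, the array set as a block, littermates of the same day as controls and the unadjusted t-test, and 0 by the adjusted t-test. That t-test pooled the mo-KC arrays of both days as 1 group, so its spread held the change between the days. For Ptgs2 it compared a difference of 0.72 (adjusted p = 0.171 from the t-test), not the mean of the 2 day differences. Between the days the count was 0 within the 13 arrays and by the adjusted t-test and 3 by the unadjusted one. Between WT and colony em-KCs it was 0 at an adjusted p under 0.01 and by the adjusted t-test, 2 by the unadjusted one, and 0 to 1 without single arrays. Without WT replicate 1, Lta4h was called there (-0.60, adjusted p = 0.0368 from limma) and Hpgds was not.

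For wider genes at day 15, the count of 1 became 2 at an adjusted p under 0.1 and with a trended robust variance, 0 with same-day littermates and the adjusted t-test, 7 by the unadjusted t-test, and 0 to 1 without single arrays (0 without day 15 replicate 3). At day 30 it became 0 at an adjusted p under 0.01, with same-day littermates, within the 13 arrays and by the adjusted t-test, 2 when array set was a block, 4 within the 6 arrays, 13 by the unadjusted t-test, and 0 to 1 without single arrays (0 without KC-DTR em-KC replicate 2, day 30 mo-KC replicates 3 or 5, or day 30 littermate replicate 1). The single-gene runs for Cyp4f18 and Hpgd were chosen after seeing the data: Hpgd was lost for both days at an adjusted p under 0.01, and Cyp4f18 was lost at day 30 with colony em-KCs only (0.55, adjusted p = 0.0574 from limma). The cause was not tested.

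Arrays of the same replicate number did not deviate together (r between -0.12 and 0.15 over 36 pairs). With a replicate block, 0 wider genes were called at day 30 rather than 1, 1 at day 15, and the member counts were unchanged: 0 at day 30, 1 at day 15, 1 for both days and 1 between the days. Over all genes, the 157 called at day 30 became 49 with the replicate block, 514 with a block for array set, 65 within the 13 arrays, 827 within the 6, 27 with same-day littermates and 84 by the adjusted t-test, the 100 at day 15 became 168 with a block for array set, 231 within the 13, 44 with same-day littermates and 66 by the adjusted t-test, and the 237 for both days became 155 with the replicate block, 465 with a block for array set and 135 with same-day littermates. No called difference of a member changed direction under any alternative run.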
